A study of Mus musculus with 12 samples.

Results

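The insulin-like growth factor (IGF) axis was followed through 2 ligands, 2 receptors and 6 binding proteins, taken as the rows whose mouse gene symbol was *Igf1*, *Igf2*, *Igf1r*, *Igf2r* or one of *Igfbp2* to *Igfbp7*. Of these 10 genes, 9 were found among the 12528 genes of the expression tables, and *Igfbp2* was not analysed here. RNA-seq libraries had been made from 3 groups of sorted mouse heart cells, with 4 replicates per group and 12 libraries in all.

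*Bmi1*-YFP mice (*Bmi1* CreER/+; *Rosa26* YFP/+, on C57BL/6) carry a tamoxifen-dependent Cre under the control of *Bmi1*, so that YFP marks cells in which *Bmi1* was on at induction, together with their progeny. All mice of the 3 groups carried these alleles and had 3 injections of tamoxifen, each 9 mg for a mouse of 40 g. *Bmi1*-CPC were YFP+ heart cells sorted 5 days after induction (homeostasis), and *Sca-1*-YFP- cells were SCA-1+, YFP-, CD45- cells of such hearts, also in homeostasis, with 6 mice pooled per library in both groups. *Bmi1*-CPC AMI were YFP+ cells sorted 5 days after an acute myocardial infarction (AMI), which itself was induced 5 days after tamoxifen, with 2 to 3 mice per library. A sham-operated group is not among these samples, and pool size and time since tamoxifen differ between the AMI libraries and the others, so that their parts in an AMI difference cannot be told apart from infarction. The removal of CD45+ cells is described for *Sca-1*-YFP- cells alone. Titles of both *Bmi1*-CPC groups carry the tag SCAp beside YFPp, while YFP is the one marker given for their sort in the study, and which of these holds was not settled. *Ly6a*, which encodes SCA-1, had mean values of 809 ± 19.7 (SD, n = 4) in homeostatic *Bmi1*-CPC, 642 ± 116 in *Sca-1*-YFP- cells and 577 ± 128 in *Bmi1*-CPC AMI.

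IGF1 and IGF2 are secreted growth factors that signal through the IGF1 receptor, a tyrosine kinase linked by IRS adaptors to PI3K and AKT, whereas the IGF2 receptor binds IGF2 and carries it to lysosomes. Binding proteins hold the ligands outside the cell and can withhold or deliver them, and proteases such as PAPP-A release ligand by cutting binding proteins. In the heart, IGF1 is known for supporting the growth and survival of cardiomyocytes, and *Igf2* is an imprinted gene that is high in fetal tissues.

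RefSeq holds promoter windows for all 10 genes (14 windows, build GRCm38.p6), and those of the 6 members whose group values later parted without overlap in at least 1 comparison are shown to place the genes measured. Each line has the 150 bases before an annotated start, 5′ to 3′ on the gene's strand. Capitals mark the TATA box (TATAAA), the GC box (GGGCGG) and the CCAAT box (CCAAT), each searched for on both strands. No match overlapped another in these 6 windows.
Igf1, chr10:87860961-87861110, plus strand: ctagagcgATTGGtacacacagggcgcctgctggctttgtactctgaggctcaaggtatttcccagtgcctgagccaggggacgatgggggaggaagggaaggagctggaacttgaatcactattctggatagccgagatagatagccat
Igf2, the last of 4 windows, chr7:142657497-142657646, minus strand: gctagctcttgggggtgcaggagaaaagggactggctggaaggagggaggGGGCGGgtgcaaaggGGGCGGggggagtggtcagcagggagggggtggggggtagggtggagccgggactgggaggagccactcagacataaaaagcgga
Igf1r, chr7:67952107-67952256, plus strand: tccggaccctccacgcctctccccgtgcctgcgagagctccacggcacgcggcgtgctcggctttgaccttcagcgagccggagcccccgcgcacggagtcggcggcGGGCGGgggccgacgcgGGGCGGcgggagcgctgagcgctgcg
Igfbp3, chr11:7213924-7214073, minus strand: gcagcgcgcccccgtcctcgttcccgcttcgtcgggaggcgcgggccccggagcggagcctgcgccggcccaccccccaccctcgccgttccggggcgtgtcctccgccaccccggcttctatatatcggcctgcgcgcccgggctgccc
Igfbp4, chr11:99041094-99041243, plus strand: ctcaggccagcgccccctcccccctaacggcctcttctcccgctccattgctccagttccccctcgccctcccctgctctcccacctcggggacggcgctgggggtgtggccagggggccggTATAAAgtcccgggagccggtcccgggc
Igfbp6, chr15:102144036-102144185, plus strand: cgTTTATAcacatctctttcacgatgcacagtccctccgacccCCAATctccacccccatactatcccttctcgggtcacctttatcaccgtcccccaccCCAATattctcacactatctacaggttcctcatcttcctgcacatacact

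*Igfbp4* had TATAAA 28 bases before its start, a motif held by 7.57% of the 32851 windows of this length. The *Igfbp6* window held the same letters on the other strand, 148 bases before the start, so the mark there is a letter match only. *Igf1r* and the *Igf2* window each had 2 GC boxes, a motif found in 28.6% of windows, and 78.7% of the *Igf1r* bases were G or C against a median of 54.0% over all windows. CCAAT, present in 24.5% of windows, occurred 2 times before *Igfbp6* and 1 time before *Igf1*, whereas the *Igfbp3* window had no exact match to the 3 motifs. That window holds the letters tatatat near its end, and such variants of TATAAA were not searched for. The values below are summed over all starts of a gene, so they do not say which of the 4 *Igf2* starts was in use.

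Values are the authors' normalized expression values, which are reads scaled per library, and libraries held 3397621 to 8078721 reads over the genes of the tables. Libraries of *Bmi1*-CPC AMI held 6784686 to 8078721 reads and those of homeostatic *Bmi1*-CPC 4063619 to 4993906, so read depth differed with AMI as well. One read was worth 0.105 to 0.296 in these units. Fold changes are differences of log2(value + 1) with their standard error (SE), tested with limma over all genes (two-sided) and called at a Benjamini-Hochberg adjusted p under 0.05. The p-values measure the spread between pools of mice, and the study calls its samples matched without saying in what. *Sca-1*-YFP- replicate 2 stood apart from its group, with pericyte and smooth muscle markers summing to 785 against 424 to 500 in the other 3, and results that turn on it are given without it as well. Fibroblast markers (*Col1a1*, *Pdgfra*, *Dcn* and others, 8 of 8 present) summed to 16798 to 20418 in *Sca-1*-YFP- cells, 3336 to 6214 in homeostatic *Bmi1*-CPC and 12358 to 17615 in *Bmi1*-CPC AMI. The 8 endothelial markers summed to 4633 to 6437 in homeostatic *Bmi1*-CPC, 1185 to 2558 in *Sca-1*-YFP- cells and 3066 to 4557 after AMI, and 8 cardiomyocyte markers summed to 820 to 1378, 79.5 to 203 and 281 to 440. The sorted groups thus differ in the cell type markers they carry, and in bulk samples fewer cells of a type and less RNA per cell cannot be told apart.

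Between the resting populations, *Bmi1*-CPC held less *Igf1*, *Igfbp4* and *Igfbp6* mRNA than *Sca-1*-YFP- cells and more *Igf2*. After AMI, *Igf1* was higher and *Igf2* lower than in homeostatic *Bmi1*-CPC, and both ligands then lay at values that overlapped those of *Sca-1*-YFP- cells. For *Igfbp4* and *Igfbp6* the *Bmi1*-CPC groups before and after AMI overlapped, and *Igf1r* and *Igfbp3* were lower after AMI. Of the 9 members, 5 passed the test between the resting populations (1 higher and 4 lower in *Bmi1*-CPC), where 34.4% of all genes passed, 16.8% higher and 17.6% lower. These libraries were fitted without their replicate number, and with it as a block 5 members were lower, *Igfbp7* being the one added. After AMI, 4 of 9 passed (1 higher and 3 lower), with a background of 43.4% (21.4% higher, 22% lower). In *Bmi1*-CPC AMI against *Sca-1*-YFP- cells, 3 of 9 passed, all lower, with a background of 51.8% (25.5% higher, 26.3% lower), and 0 were higher by limma, edgeR or DESeq2, also at an unadjusted p under 0.05. The members' share was thus above the background in the first comparison and below it in the last, and with 9 members nothing is read from these shares. Groups did not overlap for 33.7% of all genes tested between the resting populations, 40.6% after AMI and 46.8% in the third comparison. The 3 comparisons share libraries in pairs, so their values are set side by side and are not independent of each other.

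**Figure D1:**
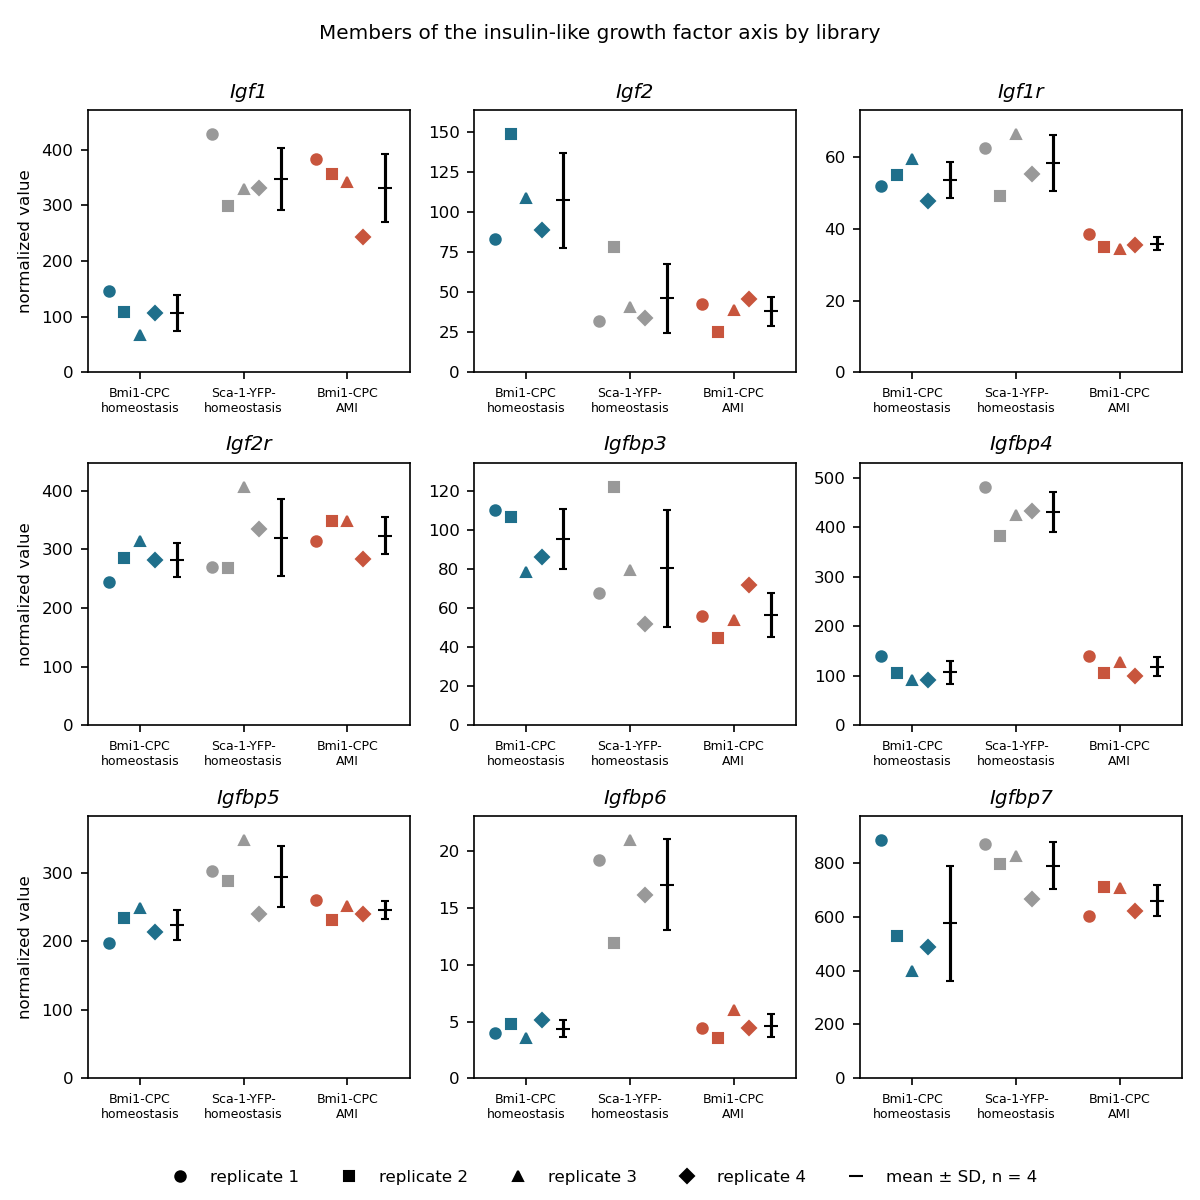
Normalized value (vertical axes, from 0) of each measured member in the 12 libraries, with the mean and SD of each group of 4 beside the points. *Igf1* is low only in homeostatic *Bmi1*-CPC (67.6 to 146), *Igf2* is high in them (83.0 to 149), and *Igfbp4* and *Igfbp6* are high only in *Sca-1*-YFP- cells (382 to 481 and 11.9 to 21.0).

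*Igf1*, whose product is the main growth factor under growth hormone control, had values of 146, 108, 67.6 and 106 in homeostatic *Bmi1*-CPC replicates 1 to 4. In *Sca-1*-YFP- cells it stood at 429, 300, 329 and 332, and in *Bmi1*-CPC AMI at 384, 357, 343 and 243. All 4 homeostatic *Bmi1*-CPC libraries lay below all 8 others, and the AMI range overlapped that of *Sca-1*-YFP- cells. The mean was 3.25 times higher in *Sca-1*-YFP- cells than in resting *Bmi1*-CPC (log2 difference of *Bmi1*-CPC minus *Sca-1*-YFP- −1.73, SE 0.20, adjusted p = 3.17e-05). After AMI it rose to 3.10 times its homeostatic level (log2 1.65, SE 0.20, adjusted p = 8.01e-05). The difference between *Bmi1*-CPC AMI and *Sca-1*-YFP- cells was −0.08 on the log2 scale, with a 95% interval of −0.41 to 0.26 (adjusted p = 0.708), and its sign turned positive without *Sca-1*-YFP- replicate 1 (0.03) or AMI replicate 4 (0.07).

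*Igf1* values were beside markers of 2 kinds that also moved after AMI. The fibroblast sum in *Bmi1*-CPC AMI overlapped that in *Sca-1*-YFP- cells, and the libraries with the lowest *Igf1* in each *Bmi1*-CPC group (homeostatic replicate 3 and AMI replicate 4) also had the lowest fibroblast sums of their groups, 3336 and 12358. In *Sca-1*-YFP- cells the lowest *Igf1* was in replicate 2 (300) and the lowest fibroblast sum in replicate 4 (16798). Among the 8 fibroblast markers 5 rose after AMI and 1, *Tcf21*, fell. Relative to *Sca-1*-YFP- cells, 3 of the 8 were higher in *Bmi1*-CPC AMI (*Col1a1*, *Col1a2* and *Col3a1*). The other 5 were lower, among them *Pdgfra* (log2 −1.92) and *Dcn* (−1.79), so the overlap of the sums does not hold gene by gene. Macrophage markers (*Csf1r*, *Lyz2*, *Mrc1* and others, 8 of 9 listed names present) summed to 130 to 246 in homeostatic *Bmi1*-CPC, 2.76 to 4.32 in *Sca-1*-YFP- cells and 715 to 1283 after AMI, and macrophages are a known source of IGF1 in healing muscle. Over AMI replicates 1 to 4 the macrophage sums (1283, 1041, 861 and 715) fell in the same order as *Igf1*. In homeostatic *Bmi1*-CPC the lowest macrophage sum (130) was in replicate 2, which was not the lowest in *Igf1*. In *Sca-1*-YFP- cells *Igf1* was high while these macrophage markers were near 0, 2 of the 8 having no read in any library of that group. The part of either cell type in the rise of *Igf1* after AMI was not tested.

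*Igf2*, the second ligand, went the other way. Its values were 83.0, 149, 109 and 89.0 in homeostatic *Bmi1*-CPC, while *Sca-1*-YFP- cells had 32.0, 78.1, 40.5 and 34.1 and *Bmi1*-CPC AMI had 42.4, 25.4, 38.6 and 45.8. The 4 resting *Bmi1*-CPC libraries were above all others, although *Sca-1*-YFP- replicate 2 (78.1) came close to the lowest of them (83.0). The mean in resting *Bmi1*-CPC was 2.33 times that in *Sca-1*-YFP- cells (log2 1.26, SE 0.26, adjusted p = 0.00206), and without *Sca-1*-YFP- replicate 2 the log2 difference was 1.54. After AMI it fell by 1.47 on the log2 scale (SE 0.20, adjusted p = 1.66e-04). *Bmi1*-CPC AMI and *Sca-1*-YFP- cells overlapped, at a log2 difference of −0.21 with an interval of −0.79 to 0.37, and that sign turned to 0.07 without *Sca-1*-YFP- replicate 2. *Igf2* shares 62.8% of its exon bases with a same-strand gene model (*Gm49394*) in the GENCODE vM21 annotation of GRCm38 that is not a row of these tables, and 98 bases with the antisense *Igf2os*, from which unstranded libraries cannot separate it.

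Within a library, the ratio of the *Igf1* value to the *Igf2* value was 0.62 to 1.76 in homeostatic *Bmi1*-CPC, 3.84 to 13.4 in *Sca-1*-YFP- cells and 5.31 to 14.0 in *Bmi1*-CPC AMI. This ratio was formed after the values had been seen and is given as a description. Its resting *Bmi1*-CPC range lay wholly under the other 2 ranges, which overlapped each other.

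The IGF1 receptor gene, *Igf1r*, was measured at 51.9, 55.1, 59.6 and 47.9 in homeostatic *Bmi1*-CPC and at 62.7, 49.1, 66.6 and 55.3 in *Sca-1*-YFP- cells. In *Bmi1*-CPC AMI the values were 38.5, 35.1, 34.5 and 35.5. The resting populations overlapped, and all 4 AMI libraries lay below all 8 others. The receptor mRNA fell by 0.56 on the log2 scale after AMI (SE 0.10, adjusted p = 8.48e-04), and *Bmi1*-CPC AMI were lower than *Sca-1*-YFP- cells by −0.68 (SE 0.11, adjusted p = 3.47e-04). Between the resting populations the log2 difference was −0.12, with an interval of −0.39 to 0.16.

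*Igf2r*, which encodes the clearance receptor for IGF2 and also carries lysosomal enzymes, did not pass the test in any comparison. It had values of 244, 285, 315 and 282 in homeostatic *Bmi1*-CPC, while *Sca-1*-YFP- cells had 270, 269, 406 and 334 and *Bmi1*-CPC AMI had 314, 348, 348 and 284. All 3 ranges overlapped, and the largest of the 3 log2 differences was 0.20 after AMI (interval −0.03 to 0.43, adjusted p = 0.140). Its difference between *Bmi1*-CPC AMI and *Sca-1*-YFP- cells, 0.03, had no settled sign.

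**Figure D2:**
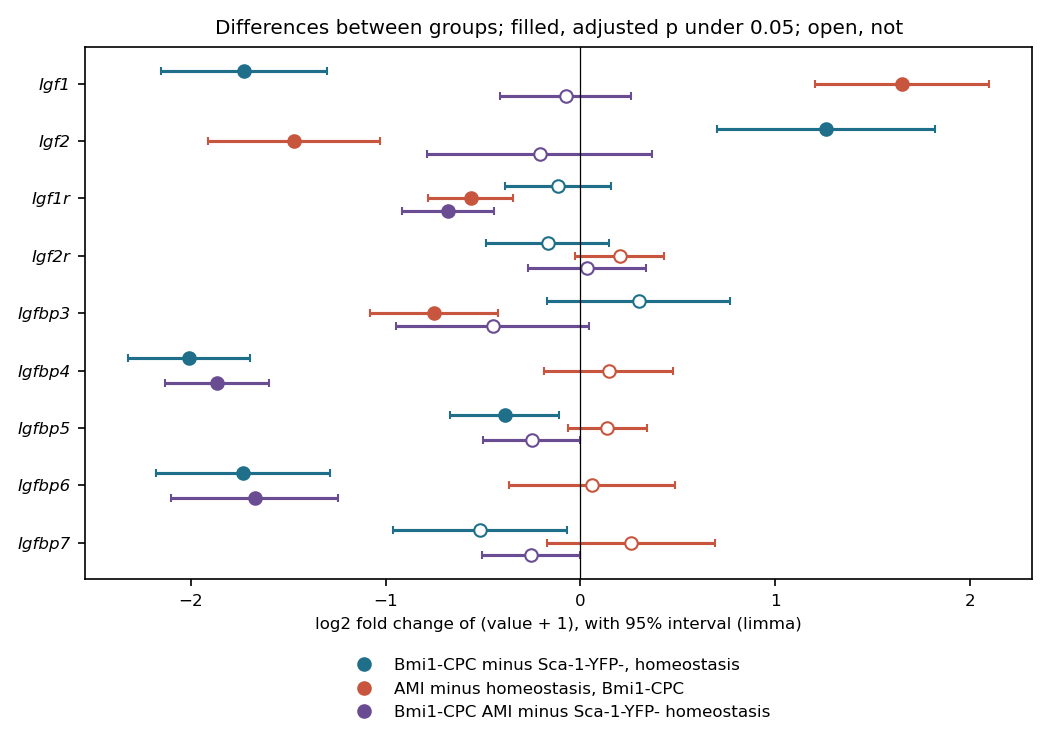
Log2 fold change of value + 1 (horizontal axis) for the 9 members in the 3 comparisons, with the 95% interval of each limma estimate, filled where the adjusted p was under 0.05. *Igf1* and *Igf2* point in opposite directions in the first 2 comparisons and have intervals across 0 in the third, whereas *Igfbp4* and *Igfbp6* are low against *Sca-1*-YFP- cells both before (−2.01 and −1.73) and after AMI (−1.86 and −1.67).

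*Igfbp4*, a binding protein that PAPP-A cuts when IGF is bound, had the largest difference of the axis. Its values were 141, 107, 91.3 and 91.4 in homeostatic *Bmi1*-CPC, while *Sca-1*-YFP- cells had 481, 382, 425 and 432 and *Bmi1*-CPC AMI had 141, 105, 127 and 99.5. The *Sca-1*-YFP- libraries were above all 8 *Bmi1*-CPC libraries, whose 2 groups overlapped. Other transcripts match *Igfbp4* over short stretches, at most 144 bases (*Ctdspl2*, 95.1% identity). The log2 difference was −2.01 between the resting populations (SE 0.14, adjusted p = 2.01e-06) and −1.86 between *Bmi1*-CPC AMI and *Sca-1*-YFP- cells (SE 0.12, adjusted p = 6.86e-07). After AMI *Igfbp4* differed from its homeostatic level by 0.14, with an interval of −0.19 to 0.48, while the fibroblast sum rose in the same libraries. Those fibroblast markers did not all move alike. The collagen genes *Col1a1*, *Col1a2* and *Col3a1* rose by 2.92, 2.59 and 3.21 after AMI, whereas *Pdgfra* had 262 ± 25.7 (SD, n = 4) before and 270 ± 54.1 after. Outside the collagens, *Lum* and *Dpt* also rose, by 1.31 and 1.13. *Dcn* differed by 0.23 and was not called, and *Tcf21* changed by −0.63.

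*Igfbp6*, which prefers IGF2 among its ligands, was the least abundant binding protein measured. It stood at 3.99, 4.80, 3.53 and 5.17 in homeostatic *Bmi1*-CPC (13 to 22 reads), at 19.2, 11.9, 21.0 and 16.1 in *Sca-1*-YFP- cells (53 to 182 reads) and at 4.45, 3.57, 6.02 and 4.47 in *Bmi1*-CPC AMI (25 to 46 reads). Again the *Sca-1*-YFP- libraries lay above all others, by a log2 difference of −1.73 for resting *Bmi1*-CPC (SE 0.20, adjusted p = 4.08e-05) and −1.67 for *Bmi1*-CPC AMI (SE 0.20, adjusted p = 4.10e-05). The pseudocount narrows these differences at such low values, and the means were 3.91 and 3.69 times higher in *Sca-1*-YFP- cells. Before and after AMI the log2 difference was 0.06 (interval −0.36 to 0.48).

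*Igfbp3*, the main carrier of IGF in serum, had values of 110, 107, 78.6 and 86.1 in homeostatic *Bmi1*-CPC, while *Sca-1*-YFP- cells had 67.8, 122, 79.6 and 51.7 and *Bmi1*-CPC AMI had 55.7, 44.6, 53.8 and 71.7. The AMI libraries were all below the homeostatic *Bmi1*-CPC libraries, at a log2 difference of −0.75 (SE 0.15, adjusted p = 0.00184). The resting populations overlapped and the difference of 0.30 missed the threshold (interval −0.17 to 0.77, adjusted p = 0.324). This turned on *Sca-1*-YFP- replicate 2, the library with the highest value, since without it *Igfbp3* was called higher in *Bmi1*-CPC (log2 0.52, adjusted p = 0.0269, from a range of 0.0269 to 0.976 over 21 alternatives), which made 2 members higher instead of 1. Between *Bmi1*-CPC AMI and *Sca-1*-YFP- cells it differed by −0.45 (interval −0.94 to 0.04).

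*Igfbp5*, which binds extracellular matrix as well as IGF, had 198, 234, 248 and 213 in homeostatic *Bmi1*-CPC, while *Sca-1*-YFP- cells had 302, 288, 348 and 239 and *Bmi1*-CPC AMI had 259, 231, 252 and 239. Homeostatic *Bmi1*-CPC passed the test as lower than *Sca-1*-YFP- cells (−0.39, SE 0.13, adjusted p = 0.0336), but *Sca-1*-YFP- replicate 4 lay within their range. Leaving out *Sca-1*-YFP- replicate 1 or 3, or *Bmi1*-CPC replicate 1 or 4, ended this call (adjusted p up to 0.113), as did a fit with no variance trend. The other 2 differences, 0.14 after AMI and −0.25 against *Sca-1*-YFP- cells, did not pass.

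*Igfbp7*, a relative with weak affinity for IGF that is common in vessel walls, had the highest values of the axis, with 885, 529, 397 and 488 in homeostatic *Bmi1*-CPC, while *Sca-1*-YFP- cells had 869, 794, 825 and 667 and *Bmi1*-CPC AMI had 601, 710, 707 and 619. Homeostatic *Bmi1*-CPC replicate 1 stood at the level of *Sca-1*-YFP- cells, and the other 3 lay below all 8 remaining libraries. With all 8 libraries the resting populations differed by −0.52 (SE 0.21, adjusted p = 0.0731). The difference was called under 5 of 21 alternatives, namely the replicate number as a block (adjusted p = 0.0150), all 12 libraries in 1 fit, equal library totals (−0.77), edgeR with library totals (−0.74), and without *Bmi1*-CPC replicate 1 (−0.75). The adjusted p ran from 0.00187 to 0.204 over these alternatives. The AMI difference was 0.26 (interval −0.17 to 0.69), and without homeostatic replicate 1 it was called at 0.49 (adjusted p = 0.00703, from a range of 0.00703 to 0.679), which made 2 members higher after AMI instead of 1. *Igfbp7* overlaps *Polr2b* on the other strand by 85 exon bases in GENCODE vM21.

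Between *Bmi1*-CPC AMI and *Sca-1*-YFP- cells, the members called lower were *Igf1r*, *Igfbp4* and *Igfbp6*. Without *Sca-1*-YFP- replicate 4, the library lowest in *Igfbp3*, *Igfbp5* and *Igfbp7* of its group, these 3 genes were called lower too, giving 6. Summed over the 5 measured binding proteins, values came to 818 to 1337 in homeostatic *Bmi1*-CPC, 1405 to 1739 in *Sca-1*-YFP- cells and 1034 to 1146 in *Bmi1*-CPC AMI, so the *Sca-1*-YFP- sums lay above all others. *Igfbp7* made up the largest part, with means of 574, 789 and 659 in mean sums of 1005, 1610 and 1084. The summed values were not scaled by gene length.

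Per kilobase of exon (GENCODE vM21 lengths), which allows genes to be set against each other, the order within homeostatic *Bmi1*-CPC began with *Igfbp7* (475 ± 177, SD, n = 4), followed by *Igfbp5* (37.2 ± 3.70), *Igfbp3* (30.4 ± 4.89), *Igf2r* (30.2 ± 3.12), *Igfbp4* (24.3 ± 5.27) and *Igf2* (18.8 ± 5.21). *Igf1* (10.8 ± 3.22), *Igfbp6* (3.93 ± 0.669) and *Igf1r* (3.19 ± 0.294) came last. Neighbours in this order overlapped within their SDs, other than *Igfbp7* with *Igfbp5* and *Igf1* with *Igfbp6*. In *Sca-1*-YFP- cells *Igfbp4* moved to the second place with 97.4 ± 9.17 per kb and *Igf1* (35.1 ± 5.68) stood level with *Igf2r* (34.4 ± 7.01), far above *Igf2* (8.07 ± 3.77). In *Bmi1*-CPC AMI *Igf1* had 33.5 ± 6.20 per kb, close to *Igf2r* at 34.8 ± 3.33 and above *Igf2* at 6.65 ± 1.56, and *Igf1r* was again the lowest at 2.14 ± 0.106. The ligand order thus ran *Igf2* over *Igf1* in resting *Bmi1*-CPC, where they overlapped within their SDs, and *Igf1* over *Igf2* in the other 2 groups.

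The genes closest to each member in their pattern over the 12 libraries were found by the root mean square difference of centred log2(value + 1) profiles, among 12377 genes. *Slc7a2* (0.14) and *S100a4* (0.15) were nearest to *Igf1*, whose own profile had an SD of 0.85, and *Serping1* and the fibroblast marker *Pdgfra* (both 0.13) were nearest to *Igfbp4* (SD 0.94). *Pygm* (0.19) and *Wars* (0.22) came closest to *Igf2* (SD 0.76), *Arhgef11* (0.09) and *Smarca2* (0.10) to *Igf1r* (SD 0.32), and *Lbp* (0.17) and *Nlgn3* (0.18) to *Igfbp6* (SD 0.84). The nearest to *Igfbp3* were *Frmd8* (0.17) and *Syn2* (0.19), but its SD was only 0.44. For the members with the flattest profiles, *Igf2r* (SD 0.20), *Igfbp5* (0.21) and *Igfbp7* (0.34), the nearest genes were *Acbd3* (0.10) and *S100pbp* (0.11), *Dcaf12* (0.10) and *Pus7l* (0.11), and *5730409E04Rik* (0.12) and *Vkorc1* (0.15).

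**Figure D3:**
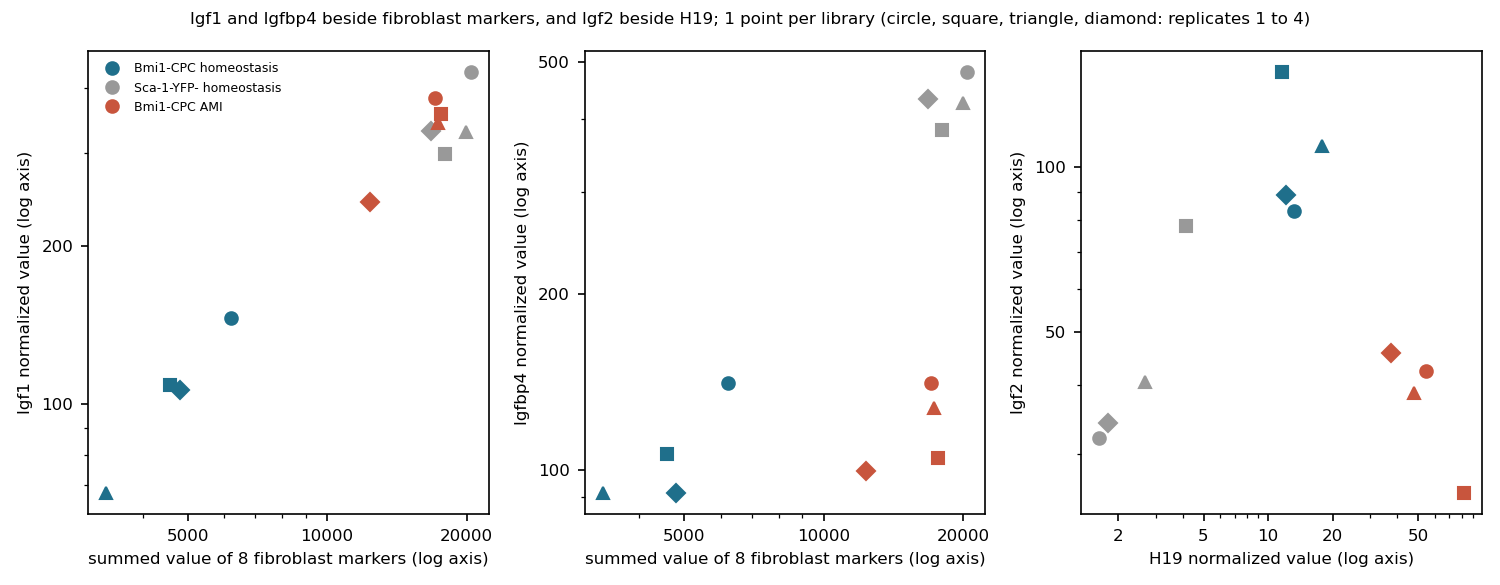
Each point is a library, on log axes: *Igf1* (left) and *Igfbp4* (middle) against the summed value of 8 fibroblast markers, and *Igf2* against *H19* (right). *Bmi1*-CPC AMI reach 12358 to 17615 in fibroblast sum with *Igf1* at 243 to 384 but *Igfbp4* at 99.5 to 141, and have the highest *H19* (37.4 to 81.8) beside low *Igf2* (25.4 to 45.8). Of the 8 fibroblast markers, 3 were higher and 5 lower in *Bmi1*-CPC AMI than in *Sca-1*-YFP- cells.

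Other genes of the pathway were taken from 5 lists. Over all genes tested, 16.8% were higher and 17.6% lower between the resting populations, and 21.4% and 22% after AMI. In *Bmi1*-CPC AMI against *Sca-1*-YFP- cells these shares were 25.5% and 26.3%. List counts are set beside these shares, and nothing is read from a count near them. Among ligands, receptors and partners outside the members, 5 of 14 genes were in the tables. *H19*, a non-coding RNA that is the imprinted neighbour of *Igf2* on chromosome 7 and is made from the other parental copy, had 13.2, 11.6, 17.9 and 12.1 in homeostatic *Bmi1*-CPC. It had 1.63, 4.12, 2.67 and 1.79 in *Sca-1*-YFP- cells and 54.6, 81.8, 47.7 and 37.4 in *Bmi1*-CPC AMI. The 3 groups did not overlap in any pair. Compared with *Sca-1*-YFP- cells *H19* was higher in resting *Bmi1*-CPC, as *Igf2* was (log2 2.08, SE 0.24, adjusted p = 3.78e-05), but it rose after AMI by 1.90 (SE 0.21, adjusted p = 4.22e-05), where *Igf2* fell. In *Bmi1*-CPC AMI it was 3.98 above *Sca-1*-YFP- cells (SE 0.26, adjusted p = 6.10e-07). *Sca-1*-YFP- libraries held only 6 to 18 reads of *H19*, where the pseudocount narrows differences. The means of resting *Bmi1*-CPC and *Bmi1*-CPC AMI were 5.36 and 21.7 times that of *Sca-1*-YFP- cells.

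*Igf2bp2*, which encodes an RNA-binding protein that binds *Igf2* mRNA among others, was lower in resting *Bmi1*-CPC (3.97 ± 0.846 against 8.63 ± 2.32, log2 −0.94, adjusted p = 0.00557) and in *Bmi1*-CPC AMI (5.11 ± 1.08, log2 −0.64, adjusted p = 0.0214) than in *Sca-1*-YFP- cells. The second of these calls ended without *Sca-1*-YFP- replicate 2 or 3, AMI replicate 2 or 4, or replicate 4 of both groups. *Insl3*, a relaxin-family hormone gene, passed at 5.34 ± 0.603 in resting *Bmi1*-CPC against 1.34 ± 0.307 and 2.07 ± 0.861 after AMI, but 64.8% of its exon bases lie in *Jak3*, so its reads are uncertain. The list gave 2 higher, 1 lower and 2 not called between the resting populations (median log2 difference 0.24, against 0.00 over all genes tested) and 1 higher and 1 lower both after AMI (median −0.07, all genes −0.02) and between *Bmi1*-CPC AMI and *Sca-1*-YFP- cells (median 0.14, all genes −0.02).

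Proteases that cut binding proteins, with their inhibitors, were measured for 11 of 15 genes. Of 10 tested between the resting populations, 1 was higher and 6 lower in *Bmi1*-CPC (median −0.84). *Htra3*, a serine protease of the HtrA family, which cuts binding proteins, had 181, 168, 96.4 and 178 in homeostatic *Bmi1*-CPC while *Sca-1*-YFP- cells had 766, 509, 650 and 740 (log2 −2.11, SE 0.20, adjusted p = 9.27e-06). Its relatives *Htra1* (18.8 ± 2.89 against 46.8 ± 5.33, log2 −1.28, adjusted p = 2.54e-05) and *Htra4* (16.4 ± 10.3 against 58.1 ± 22.4, log2 −1.85, adjusted p = 9.29e-04) were lower as well. *Htra4* overlaps an RNA on the other strand over 32.9% of its exon bases, and that RNA is also in the tables. All 3 stayed low in *Bmi1*-CPC AMI against *Sca-1*-YFP- cells, with log2 differences of −2.84 (*Htra3*), −1.21 (*Htra1*) and −2.55 (*Htra4*).

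*Pappa*, which encodes the protease PAPP-A, had 4.59, 6.50, 5.00 and 4.20 in homeostatic *Bmi1*-CPC, while *Sca-1*-YFP- cells had 21.1, 10.4, 14.8 and 13.9 and *Bmi1*-CPC AMI had 35.2, 43.1, 29.8 and 21.8. No pair of groups overlapped. At rest it was lower in *Bmi1*-CPC (log2 −1.37, SE 0.22, adjusted p = 3.54e-04) and rose after AMI by 2.44 (SE 0.20, adjusted p = 6.41e-06), to 6.40 times its homeostatic mean. *Adam12*, a metalloprotease that cuts IGFBP3 and IGFBP5, had 9.32, 10.6, 10.8 and 12.4 in homeostatic *Bmi1*-CPC, while *Sca-1*-YFP- cells had 5.21, 2.79, 9.41 and 13.7 and *Bmi1*-CPC AMI had 119, 153, 124 and 99.3. Its rise of 3.40 after AMI (SE 0.14, adjusted p = 1.21e-07) was 11.5-fold in means, with the resting populations overlapping. *Adam12* matches *CT030642.2* over 373 bases at 99.7% identity, and other transcripts over shorter stretches.

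After AMI 5 of the 11 protease and inhibitor genes rose and 1 fell (median 0.07). *Plau*, the urokinase gene, rose by 1.12 (adjusted p = 9.02e-05) from 10.6 ± 1.15 to 24.2 ± 3.39, and *Ctsd*, the lysosomal protease cathepsin D, by 0.85 (adjusted p = 0.00117), although *Ctsd* shares 34.4% of its exon bases with a same-strand gene model (*Gm49369*). Against *Sca-1*-YFP- cells, *Bmi1*-CPC AMI had 5 higher and 4 lower (median 0.19), so the low HtrA genes and the high *Adam12* (log2 3.99, SE 0.34) lay side by side in the same libraries. The rises of *Pappa*, *Adam12* and *Plau* came with the higher collagen and macrophage marker values given for *Igf1*, whose part was not tested.

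**Figure D4:**
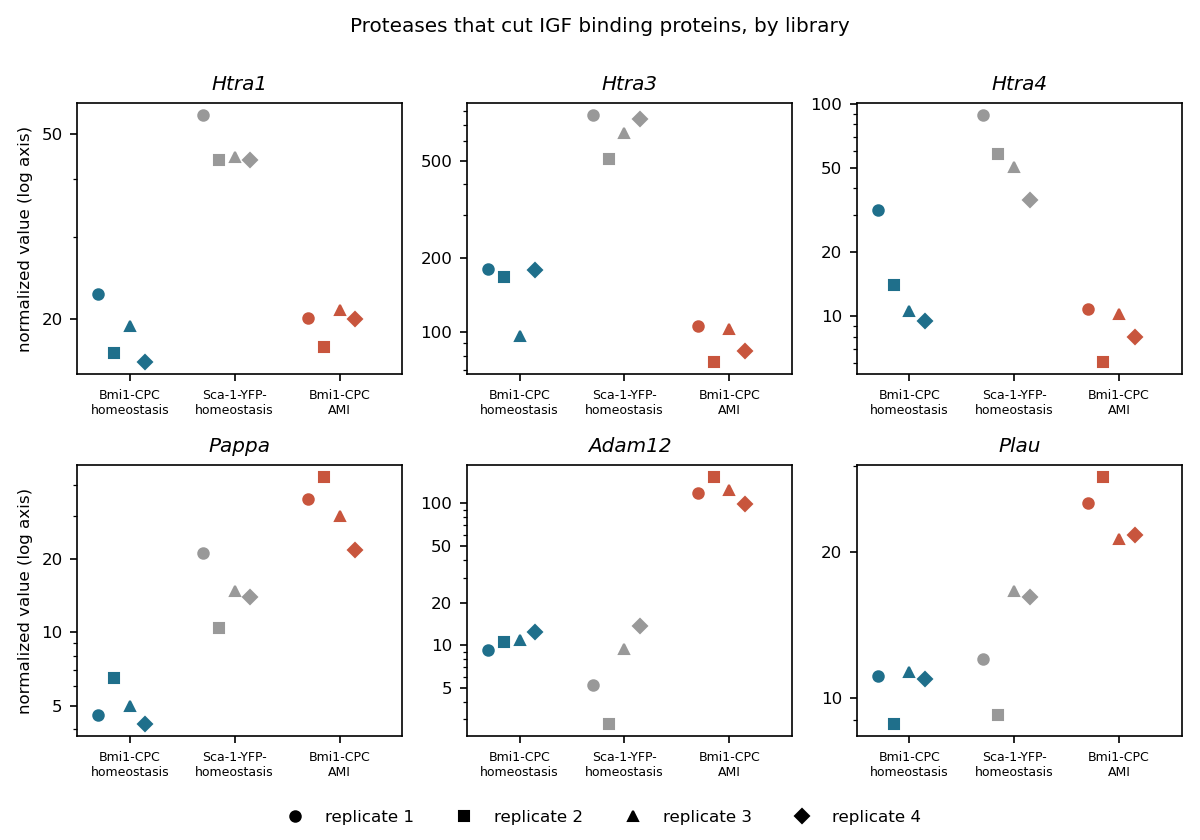
Normalized value (log axes) of 6 protease genes in the 12 libraries. *Htra1*, *Htra3* and *Htra4* are highest in *Sca-1*-YFP- cells (44.0 to 54.8, 509 to 766 and 35.2 to 88.5), and *Pappa*, *Adam12* and *Plau* are highest in *Bmi1*-CPC AMI (21.8 to 43.1, 99.3 to 153 and 21.3 to 28.5).

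Inside the cell, 28 of 30 genes for receptor adaptors and PI3K-AKT signalling were measured. Between the resting populations 4 were higher and 6 lower in *Bmi1*-CPC (median −0.02), with 34.4% of all genes called. *Irs1* and *Irs2*, the adaptors of the IGF1 and insulin receptors, were both lower, *Irs1* at 39.2, 40.4, 25.2 and 35.2 against 134, 89.5, 120 and 107 (log2 −1.66, SE 0.17, adjusted p = 1.28e-05) and *Irs2* at 16.7 ± 5.92 against 44.1 ± 2.79 (log2 −1.41, adjusted p = 1.87e-04). *Akt2*, the AKT form tied to insulin action, was lower (40.7 ± 6.60 against 75.1 ± 6.42, log2 −0.88), and *Pik3cb*, a catalytic PI3K subunit, was higher (66.0 ± 6.88 against 20.6 ± 5.52, log2 1.66, adjusted p = 1.77e-05). *Irs1* shares 30.9% of its exon bases with an opposite-strand gene (*Gm9747*) that is also in the tables, and *Akt2* has a near-identical pseudogene. *Pik3cb* matches *Gm12978* and *Gm12992* over 521 and 522 bases at 99.6% identity.

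After AMI 3 of the 28 rose and 8 fell (median −0.05), with 43.4% of all genes called. *Mtor*, the growth kinase downstream of AKT, fell by 0.68 (85.8 ± 4.45 to 53.2 ± 5.15, adjusted p = 1.81e-04). *Gsk3a* and *Akt1* fell by 0.65 and 0.57 (adjusted p = 0.00206 and 0.00302), with 28.3% of *Gsk3a* exon bases shared with an opposite-strand gene that is also in the tables. The sizes were close to that of *Igf1r* and well under those of the ligands. Against *Sca-1*-YFP- cells, *Bmi1*-CPC AMI had 5 higher and 12 lower (median −0.12), with *Irs1* at 30.4, 41.4, 28.2 and 24.5 (log2 −1.83, adjusted p = 5.97e-06) and *Akt2* at −1.31. The regulatory PI3K subunits *Pik3r2* (log2 −1.57) and *Pik3r3* (log2 1.41) stood in opposite directions there, and 24.3% of *Pik3r3* exon bases lie in a same-strand gene model.

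FOXO factors and genes that insulin or IGF signalling holds down through FOXO were measured for 11 of 14 genes. Between the resting populations, with 34.4% of all genes called, 0 were higher and 4 lower in *Bmi1*-CPC by limma (median −0.25). These were *Sesn3*, a stress-response gene (log2 −1.08, adjusted p = 1.87e-04), the repressor gene *Bcl6* (−1.44), *Foxo3* itself (−0.68, adjusted p = 0.00219) and *Klf15* (−1.16, adjusted p = 0.0499), whose call ended under 14 of 21 other settings. At an unadjusted p under 0.05, 1 gene was higher by each of limma, edgeR and DESeq2, and the last 2 tools called 0 higher and 3 lower. After AMI *Sesn3* rose by 0.71 (adjusted p = 0.00845), *Foxo1* fell by 0.34 (adjusted p = 0.0264) and *Klf15* by 1.43 (adjusted p = 0.0207), so 1 rose and 2 fell of 11 (median −0.10). The *Foxo1* call ended under 8 of 21 alternatives, among them equal library totals and leaving out homeostatic replicate 3 or 4 or AMI replicate 2 or 3, and that of *Klf15* under 3 of 20, all with libraries left out (homeostatic replicate 2, AMI replicate 2, or replicate 4 of both groups). *Bmi1*-CPC AMI had 0 higher and 5 lower than *Sca-1*-YFP- cells by limma, edgeR and DESeq2 alike (0 higher also at an unadjusted p under 0.05, median −0.36), among them *Klf15* (log2 −2.59, adjusted p = 3.57e-05) and *Foxo3* (−0.77). *Klf15* had only 5 to 18 reads per library in *Bmi1*-CPC AMI.

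Growth hormone, which drives *Igf1* in many tissues through its receptor, JAK2 and STAT5, was followed through 7 genes, all measured. *Ghr*, the receptor gene, had 135, 117, 103 and 93.3 in homeostatic *Bmi1*-CPC, while *Sca-1*-YFP- cells had 289, 251, 228 and 217 and *Bmi1*-CPC AMI had 142, 127, 122 and 111. It was lower than in *Sca-1*-YFP- cells both at rest (log2 −1.13, SE 0.13, adjusted p = 4.30e-05) and after AMI (−0.96, SE 0.11, adjusted p = 3.89e-05), with the *Bmi1*-CPC groups overlapping, so its pattern was unlike that of *Igf1*. *Socs2*, a feedback inhibitor that STAT5 turns on, followed it (67.9 ± 9.56, 137 ± 25.9 and 77.1 ± 4.05), whereas *Cish*, another such target, was higher in resting *Bmi1*-CPC (log2 1.11, adjusted p = 0.00206). A stretch of 599 bases of *Socs2* matches *Gm9847* at 99.5% identity.

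*Jak2* rose after AMI by 0.61 (adjusted p = 2.79e-04), and *Stat5b* fell by 0.42 (adjusted p = 0.0183), a call that ended without AMI replicate 1 or 2 and also with equal library totals, in limma and in edgeR. *Stat5b* matches *Stat5a* over 440 bases at 96.4% identity. In all, 1 of the 7 was higher and 2 lower between the resting populations (median −0.48), 1 rose and 1 fell after AMI (median −0.07), and 2 were higher and 4 lower in *Bmi1*-CPC AMI than in *Sca-1*-YFP- cells (median −0.55).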

How the data were processed

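RNA from pooled, sorted cells was amplified and sequenced from libraries that keep no strand. Build NCBIM37 and the tools cutadapt, RSEM and edgeR, with no version, come from the submitters' processing notes. The deposited values are a signal that the authors normalized, and 100% of them equal whole reads plus 0.5 times 1 factor per library (within 1e-06 of a read). Columns of the authors' own comparisons (fold change, log fold change, adjusted p) were not used, and the 4 *Bmi1*-CPC homeostasis columns are identical in both tables. Read totals were 3397621 to 8078721, and mitochondrial rRNA took 12.4% to 40.0% of them. Its share was 29.2% to 38.9% in homeostatic *Bmi1*-CPC, 12.4% to 27.4% in *Sca-1*-YFP- cells and 23.9% to 40.0% in *Bmi1*-CPC AMI. The resting populations thus did not overlap in it. *Sca-1*-YFP- replicate 1 had the lowest share (12.4%) and held 8031666 reads, where the rest of its group held 3397621 to 4683138.

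R 4.3.3 was used. Genes with a value over 1 in at least 4 of 8 libraries were tested in limma 3.58.1 with a variance trend on log2(value + 1), as the files hold normalized values where the design allowed for counts. On the recovered reads edgeR 4.0.16 (TMM) called 2056 genes higher and 2216 lower between the resting populations, and DESeq2 1.42.0 called 2110 and 2129. In trials on simulated data limma recovered 80 of 100 planted changes of 1 log2 unit between the resting populations, 82 after AMI and 85 in the third comparison, over 12450, 12486 and 12521 genes. Unchanged genes made up 18 of 197, 13 of 195 and 22 of 207 limma calls in these trials. Far fewer genes were changed in the trials than were called in the data, so these rates need not carry over. Exon overlaps, lengths and copies (blastn 2.17.0, 95% identity over 75 bases) were checked in GENCODE vM21, and promoters came from RefSeq on GRCm38.p6, so no coordinate was converted between builds.

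The members and gene lists were chosen with earlier results of these data known. All members were named, and for each pathway list and comparison at most the 4 called genes with the smallest adjusted p, besides the 2 genes nearest in pattern to each member with a group mean of at least 10. One gene named by this rule is not reported here. The text gives 1 ratio and the marker genes *Col1a1*, *Col1a2*, *Col3a1*, *Pdgfra*, *Lum*, *Dpt*, *Dcn* and *Tcf21* chosen after their values were seen. Same-numbered replicates of the homeostatic groups correlated in their deviations from the group means (0.26, 0.25, 0.16 and 0.30, other numbers at most 0.08). These pools may thus be paired, which the main fit did not use. The study calls its samples matched without saying in what. The fit without the block stayed the main one, as its methods name no block, and blocked values are given where a call changed. Those of the AMI comparisons did not (−0.17 to 0.08).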

Additional observations from a re-analysis of the deposited data

Results flagged for a closer look

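In 7 of 120 groups of 4 libraries (40 genes in 3 groups), 1 library lay far from the other 3, where chance gives about 1 in 20, and 0 of the 27 groups of members did. In homeostatic *Bmi1*-CPC, *Htra3* was 96.4 in replicate 3 (others 168 to 181), *Plau* was 8.85 in replicate 2 (others 10.9 to 11.3) and *Socs3* was 272 in replicate 2 (others 115 to 139). In *Sca-1*-YFP- cells, *Htra1* was 54.8 in replicate 1 (others 44.0 to 44.5), *Bcl6* was 129 in replicate 1 (others 64.2 to 72.7) and *Akt1* was 43.1 in replicate 2 (others 38.7 to 39.3). In *Bmi1*-CPC AMI, *Klf15* was 2.79 in replicate 1 (others 0.770 to 0.971).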

How the results depend on the processing

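With 4 pools per group, differences under about 1 log2 unit can be missed. Over 21 alternatives each, all calls of members kept their direction and their side of the threshold other than *Igfbp5* between the resting populations (log2 −0.65 to −0.30, adjusted p 0.00608 to 0.113). Equal library totals moved the median of all genes by −0.23 (−0.25 in edgeR) between the resting populations, where 1323 genes were higher and 3345 lower (1327 and 3386 in edgeR), so 28.3% of calls were higher in place of 48.8%. The same scaling gave 1777 genes lower after AMI (1792 in edgeR), with 61.2% of calls higher in place of 49.3%. Against *Sca-1*-YFP- cells it gave 2016 genes higher in *Bmi1*-CPC AMI (2025 in edgeR), with 35.6% of calls higher in place of 49.2%, a median shift of −0.16 and 5 members lower in place of 3. When mitochondrial rRNA was left out of the totals made equal, 49.8% of calls were higher between the resting populations. After AMI this share was 53.5%, and in the third comparison 53.4%. The medians of all genes were then 0.01, 0.02 and 0.03. Leaving out 1 library gave 1 to 2 members higher between the resting populations, 1 to 2 higher after AMI and 3 to 6 lower against *Sca-1*-YFP- cells, where leaving out replicate 4 of both groups gave 5. Small differences that were not called changed sign. With a library left out, *Igfbp6* after AMI ran from −0.052 to 0.15, and in *Bmi1*-CPC AMI against *Sca-1*-YFP- cells *Igf1* ran from −0.15 to 0.067, *Igf2* from −0.35 to 0.071 and *Igf2r* from −0.043 to 0.16. Without replicate 4 of both groups *Igf1* was 0.049 there, and *Igf2r* was −0.12 with equal totals and −0.13 in edgeR with library totals. The causes were not tested.

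With the replicate number as a block, 2267 genes were higher and 2400 lower between the resting populations, and *Igfbp7* passed (adjusted p = 0.0150). No other call of a member changed with the block, also after AMI and against *Sca-1*-YFP- cells, where same-numbered libraries share only a number.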
